A study of Mus musculus with 6 samples.

Results

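The genes described here encode the F1 head of mitochondrial ATP synthase, the subunit that joins the head to the stator, and the protein that inhibits the enzyme. They are Atp5a1, Atp5b, Atp5c1, Atp5d, Atp5e, Atp5o and Atpif1. The members were chosen by symbol among the entries with an Ensembl mouse identifier, which gave 8 entries for 7 genes of 60193 entries in all, 53700 of them with such an identifier. One of a pair of entries named Atp5o, ENSMUSG00000116933, was listed at 0 in all 6 samples, and the other 7 entries all passed the filter on low values (a mean of at least 1 FPKM over the 6 samples), as did 18818 entries in all. FPKM is the number of sequenced fragments scaled to gene length and sequencing depth. All values are of mRNA. Protein was not measured.

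The samples were metaphase II oocytes of ICR mice, an outbred stock, aged 42 to 45 weeks and used as a model of natural ageing. All donors of both groups were primed with 5 IU of PMSG, and young mice and oocytes before maturation were not part of the comparison. For the IVM group, denuded germinal vesicle oocytes, which had lost their cumulus cells, were matured for 12 h in M16 medium. For the IVO group, the mice received hCG 46 h after PMSG, ovulated eggs were collected 14 h after hCG, and the cumulus was taken off with hyaluronidase. There were 3 samples a group, and each was 1 pool of 20 oocytes from 3 mice, so variation between single oocytes or mice was averaged within a pool. The groups therefore differed in medium, cumulus, hormone and time together, and these cannot be told apart.

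ATP synthase is the last complex of oxidative phosphorylation (OXPHOS). Protons flow back into the matrix through a membrane rotor, the rotor turns a central stalk inside the F1 head, and the turning stalk drives ATP formation in the head. A peripheral stalk holds the head still, and when the proton gradient fails the inhibitor protein binds the head and stops it from breaking down ATP. The growing oocyte makes and stores most of the mRNA that it uses during maturation, when transcription is silent, and many stored mRNAs lose or gain poly(A) tails in this time. The cDNA here was primed from the poly(A) tail.

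Inferred depth was 16500000 to 19300000 fragments in IVM samples and 17800000 to 18200000 in IVO samples. Fragments were inferred to be longer in IVO (254 ± 8.96 bases, SD, n = 3) than in IVM (206 ± 10.5 bases, SD, n = 3), with no overlap. The median FPKM of a tested entry was 9.63 to 10.4 in IVM and 6.66 to 7.13 in IVO. The oocyte markers were present in all samples, with a sum of 25959 to 32530 FPKM in IVM and 25241 to 30054 in IVO. Most of this sum came from Oosp1, Dppa3 and H1f8, none of which was a DEG by the criteria given below. Of the 12 markers, 11 had a negative log2FC and 5 passed the test as lower in IVO. Zp1, Zp2, Zp3 and Nlrp5, 4 of these, were DEGs, against 17.9% of all tested entries. Zp2 fell 14.1-fold and Zp3 9.61-fold in mean FPKM. Of 16 cumulus and granulosa markers, 13 were under 1 FPKM in every sample and 2 of these (Amh and Pgr) were at 0. Their sum was 31.0 to 61.8 FPKM in IVM and 34.5 to 57.6 in IVO, and most of it came from Amhr2, Cyp19a1 and Fshr, the 3 tested markers, none of which was a DEG. The cumulus expansion genes Has2, Ptx3 and Tnfaip6 were low but higher in every IVO sample than in every IVM sample. Has2 was at 0.04 to 0.14 FPKM in IVM and 0.17 to 0.37 in IVO, Ptx3 at 0 to 0.03 and 0.07 to 0.17, and Tnfaip6 at 0 to 0.14 and 0.34 to 0.49. Ptgs2, another such gene, overlapped between groups, at 0.04 to 0.19 FPKM in IVM and 0.16 to 0.5 in IVO. With fragment length held common to all samples, a setting chosen after seeing the data, Atp5e, Atp5o and Atpif1 were at -2.97, -2.35 and -1.48 on the log2 scale (IVO minus IVM) and stayed DEGs. The part of other cells in the results was not tested.

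The genes of this set did not move together. Atp5e fell 6.24-fold, Atp5o 5.54-fold and Atpif1 2.41-fold from IVM to IVO in mean FPKM, and these 3 of 7 were differentially expressed genes (DEGs, |log2FC| ≥ 1 and limma adjusted p under 0.05). No member was a DEG in the other direction. The catalytic subunit gene Atp5b had nearly the same mean FPKM in both groups, and Atp5a1, Atp5c1 and Atp5d did not pass the test. Of all tested entries, 17.9% were DEGs with lower and 0.606% DEGs with higher levels in IVO. Among tested Ensembl entries the shares were 14.6% and 0.623%. By samples, 4 members were lower in every IVO than in every IVM sample, against 32.6% of all tested entries, and 1 was higher in every IVO sample, against 9.62%. With 7 genes, 3 DEGs is a small count and was not tested against that background. The median log2FC of the 7 members was -0.46, beside -0.30 over all tested entries and -0.18 over tested Ensembl entries.

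**Figure D1:**
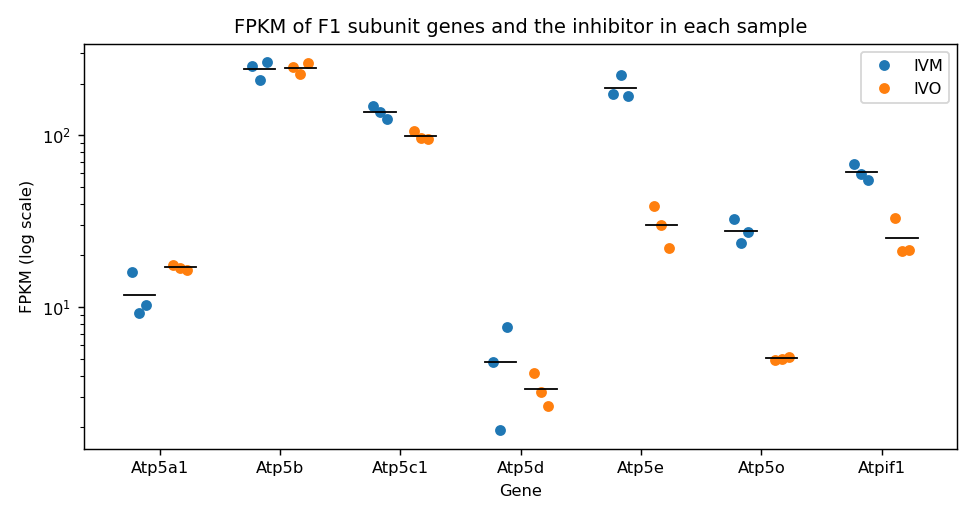
FPKM on a log axis for the 7 genes, with 1 point per sample, IVM in blue and IVO in orange, and a line at each group mean. The IVO points of Atp5e, Atp5o and Atpif1 lie well below the IVM points, and those of Atp5b overlap.

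Atp5e encodes the epsilon subunit, a small protein at the foot of the central stalk. Its level was 174, 224 and 169 FPKM in the IVM samples and 38.7, 30 and 22.1 FPKM in the IVO samples. The lowest IVM sample was above the highest IVO sample. The group means were 189 ± 30.4 FPKM (SD, n = 3) and 30.3 ± 8.29 FPKM (SD, n = 3), with a log2FC of -2.62 ± 0.25 (SE, 95% interval -3.21 to -2.04, limma adjusted p = 0.00134). In bulk RNA, fewer transcripts per oocyte of this gene and a larger amount of other RNA cannot be told apart. Each sample held 20 oocytes, and the part of other cells or of poly(A) tail length in this value was not tested. These values correspond to about 587 to 933 fragments in IVM and 69 to 111 in IVO, at an effective length (the listed length less the inferred fragment length) that was 205 to 226 bases in IVM and 158 to 174 in IVO. Fragment numbers below were found in the same way.

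Atp5o encodes the oligomycin sensitivity conferring protein, which joins the top of the F1 head to the peripheral stalk. Its level was 32.6, 23.8 and 27.3 FPKM in IVM and 4.96, 5.02 and 5.14 FPKM in IVO. The IVO samples lay within a narrow band and none reached an IVM sample. The means were 27.9 ± 4.47 and 5.04 ± 0.0917 FPKM (SD, n = 3 each), and the log2FC was -2.25 ± 0.20 (SE, 95% interval -2.71 to -1.78, limma adjusted p = 0.0012). About 290 to 335 fragments stood behind each IVM value and 52 to 55 behind each IVO value.

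Atpif1 encodes the inhibitor factor, which is not a subunit of the working enzyme. Its level was 68.1, 59.8 and 54.9 FPKM in IVM and 33.2, 21.1 and 21.4 FPKM in IVO. Again the groups did not overlap. The means were 60.9 ± 6.66 and 25.2 ± 6.89 FPKM (SD, n = 3 each), with a log2FC of -1.26 ± 0.23 (SE, 95% interval -1.81 to -0.72, limma adjusted p = 0.00999). This call depended on the scaling of the libraries. After median-ratio scaling, which moved the median log2FC of all tested entries from -0.30 to -0.04, Atpif1 was at -0.95 and short of the fold threshold (limma adjusted p = 0.0301), and with the trend over gene length removed it was at -0.61 (limma adjusted p = 0.0967).

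The catalytic hexamer of the head alternates alpha and beta subunits. Atp5b encodes beta, which holds the catalytic sites, and was the most abundant member in 5 of the 6 samples. Its level was 254, 209 and 266 FPKM in IVM and 251, 228 and 264 FPKM in IVO. The groups overlapped, with means of 243 ± 29.8 and 247 ± 18.1 FPKM (SD, n = 3 each). The log2FC was 0.03 ± 0.17 (SE, 95% interval -0.36 to 0.42, limma adjusted p = 0.917), an interval that stayed within 1 of zero on both sides. The sign of so small a value changed when fragment length was held common to all samples or when a sample was left out. Scaling moved it further, to 0.36 with median-ratio scaling (limma adjusted p = 0.153) and 0.53 with quantile normalization (limma adjusted p = 0.0642). With the same summed FPKM in each library it was 0.37, and with the same nuclear sum 0.31. Atp5b was a DEG in none of the 21 fits.

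Atp5a1 encodes alpha, the partner of beta, and was listed at a much lower level than Atp5b. Its level was 15.96, 9.25 and 10.3 FPKM in IVM and 17.6, 16.98 and 16.5 FPKM in IVO. Every IVO sample was above every IVM sample, though IVM replicate 1 nearly reached them. The log2FC of 0.53 ± 0.24 (SE, 95% interval -0.04 to 1.09) did not pass the test (limma adjusted p = 0.158). With median-ratio scaling it was 0.83 (limma adjusted p = 0.045), and with quantile normalization it was a DEG higher in IVO at 1.03 (limma adjusted p = 0.022). Atp5b was 15.9, 22.6 and 25.9 times the FPKM of Atp5a1 in the IVM samples and 14.2, 13.4 and 15.9 times in the IVO samples (exact permutation p = 0.2, two-sided), although the head holds both proteins in equal numbers.

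Atp5c1 encodes gamma, the shaft of the central stalk. Its level was 147, 136 and 125 FPKM in IVM and 105, 96.0 and 94.9 FPKM in IVO. The groups did not overlap, but the log2FC of -0.46 ± 0.16 (SE, 95% interval -0.84 to -0.08) did not pass the test (limma adjusted p = 0.0836), and under quantile normalization it was 0.05. With a common fragment length it was -0.53 and passed the test without reaching the fold threshold (limma adjusted p = 0.0422), so that 4 members in place of 3 passed as lower. Atp5d encodes delta, which sits with epsilon at the foot of the stalk, and was the least abundant member in every sample. It was at 4.83, 1.92 and 7.70 FPKM in IVM and at 4.15, 3.19 and 2.66 FPKM in IVO. The IVM samples spanned the whole IVO range, with about 27 to 107 fragments each, and the log2FC of -0.30 ± 0.41 (SE, 95% interval -1.26 to 0.66, limma adjusted p = 0.638) left a change of 1 in the lower direction within the interval. Its sign changed with quantile normalization (0.16) and with the length trend removed (0.03).

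The make-up of the set differed between groups. In IVM replicates 1 and 3 the order of levels was Atp5b, Atp5e, Atp5c1, Atpif1, Atp5o, Atp5a1 and Atp5d, and in IVM replicate 2 Atp5e stood above Atp5b. In all 3 IVO samples the order was Atp5b, Atp5c1, Atp5e, Atpif1, Atp5a1, Atp5o and Atp5d. In IVO, Atp5e and Atpif1 overlapped in range, and in IVM, Atp5b and Atp5e did, so the order within these pairs is not beyond their spread. Atp5e made up 24.9% to 33.7% of the summed FPKM of the 7 genes in IVM and 5.19% to 8.51% in IVO, whereas the share of Atp5b was 31.5% to 40.3% in IVM and 55.2% to 61.8% in IVO. Ranked among the tested entries of its own library, Atp5b stayed between the 90.9th and 94.2nd percentile in all samples. Atp5o was at the 66.3rd to 70.6th percentile in IVM and at the 42.8th to 44.9th in IVO.

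A ratio of 2 genes within 1 library does not depend on how libraries are scaled. It can still depend on gene length, as Atp5b is listed at 1916 bases and Atp5e at 421. With the length trend removed, the log2FC was -1.80 for Atp5e, -1.87 for Atp5o, -0.61 for Atpif1 and 0.22 for Atp5b. The ratios below are without that removal. Relative to Atp5b, Atp5e was at 0.683, 1.07 and 0.637 in IVM and at 0.154, 0.132 and 0.0840 in IVO, a 6.48-fold lower mean ratio. For Atp5o the ratio was 0.128, 0.114 and 0.103 in IVM and 0.0198, 0.0220 and 0.0195 in IVO, 5.61-fold lower. The ratio of Atpif1 was 0.268, 0.286 and 0.207 against 0.132, 0.0926 and 0.0814, 2.51-fold lower, and that of Atp5c1 was 1.41-fold lower. None of these 4 ratios overlapped between groups (exact permutation p = 0.1 each, two-sided), and 0.1 is the smallest p that 3 against 3 samples allow. The ratios of Atp5a1 and Atp5d to Atp5b overlapped (exact permutation p = 0.2 and 0.5). The 6 ratios share Atp5b as denominator, and adjusted over the 6 by the Benjamini-Hochberg method the exact permutation p was 0.15 for the 4 ratios above, 0.24 for Atp5a1 and 0.5 for Atp5d.

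**Figure D2:**
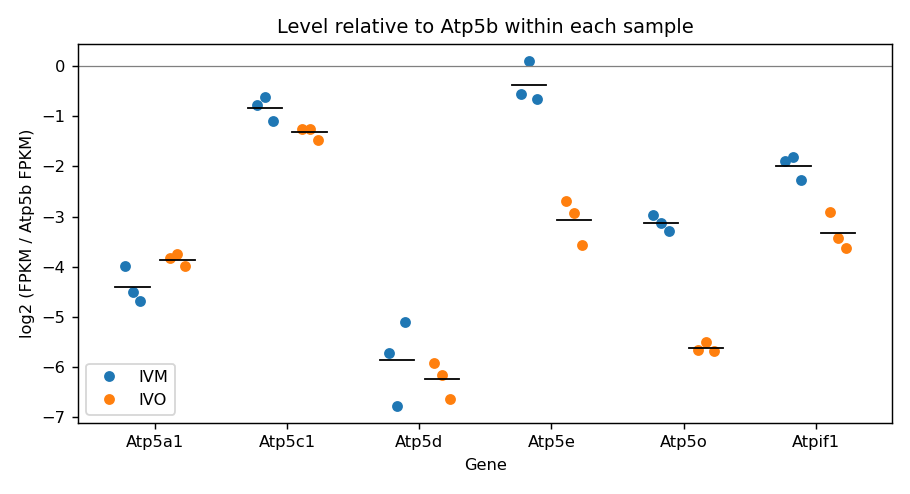
Log2 ratio of each gene's FPKM to that of Atp5b within each sample, IVM in blue and IVO in orange, with lines at the group means. The Atp5e ratio in IVO is 6.48-fold lower, and the Atp5a1 and Atp5d points overlap.

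The 3 members that fell are encoded on separate chromosomes, as the GRCm39 annotation gives them under newer symbols. Atp5e (ENSMUSG00000016252, Atp5f1e) spans chr2:174302861-174305906 on the minus strand and Atp5o (ENSMUSG00000022956, Atp5po) spans chr16:91720317-91728575 on the minus strand. Atpif1 (ENSMUSG00000054428, Atp5if1) spans chr4:132257215-132262823 on the minus strand. Atp5c1 (ENSMUSG00000025781, Atp5f1c) is on the same chromosome as Atp5e, at chr2:10060827-10085350 on the minus strand. Atp5b (ENSMUSG00000025393, Atp5f1b) spans chr10:127919132-127926261 and Atp5d (ENSMUSG00000003072, Atp5f1d) spans chr10:79974466-79981652, both on the plus strand. The identifier of Atp5a1 is ENSMUSG00000025428 (Atp5f1a). Each of the 7 is a protein-coding gene.

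The promoters of the DEGs are shown beside that of Atp5b, whose group means of FPKM were close, so that the letters at the starts of members that moved apart can be compared. The sequences are from RefSeq on GRCm38.p6, an older build than that of the gene positions above, and run 5′ to 3′ from 150 bases before the annotated start to 30 bases after it. Capitals mark matches on either strand to the NRF1 site GCGCANGCGC, the ETS core CCGGAAG or the CCAAT box. NRF1 and ETS factors are known for binding promoters of nuclear OXPHOS genes.
Atp5e (chr2:174464072-174464251, minus strand): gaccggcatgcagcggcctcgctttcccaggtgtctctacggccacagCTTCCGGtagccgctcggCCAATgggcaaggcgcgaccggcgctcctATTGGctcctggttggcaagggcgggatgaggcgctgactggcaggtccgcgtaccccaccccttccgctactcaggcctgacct
Atp5o (chr16:91931601-91931780, minus strand): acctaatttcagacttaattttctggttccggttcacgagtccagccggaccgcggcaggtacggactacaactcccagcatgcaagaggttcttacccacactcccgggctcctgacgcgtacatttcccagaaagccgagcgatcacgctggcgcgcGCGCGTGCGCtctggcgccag
Atpif1 (chr4:132535385-132535564, minus strand): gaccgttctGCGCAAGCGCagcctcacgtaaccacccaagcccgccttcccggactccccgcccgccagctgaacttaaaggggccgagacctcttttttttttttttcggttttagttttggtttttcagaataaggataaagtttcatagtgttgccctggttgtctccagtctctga
Atp5b (chr10:128083157-128083336, plus strand): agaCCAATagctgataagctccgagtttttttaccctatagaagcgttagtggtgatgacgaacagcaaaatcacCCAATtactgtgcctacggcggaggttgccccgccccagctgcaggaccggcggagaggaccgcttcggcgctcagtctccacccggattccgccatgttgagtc

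Over the full window of 250 bases before to 50 after the start, the NRF1 site was found in Atp5o, Atpif1 and 1 of the 2 windows of Atp5c1, and in 4.60% of 32851 promoters. The ETS core was found in Atp5e and in 8.86% of promoters. The CCAAT box was found 5 times in Atp5b, 2 times in Atp5e and once in each Atp5c1 window, and in 37.4% of promoters. Neither Atp5d window held any of the 3 motifs. The table had no entry for Atp5a1, which was not examined. No motif was found in all 3 DEGs, as Atp5e held no NRF1 site and Atp5o and Atpif1 held no ETS core or CCAAT box. Whether the matches bear on the levels was not tested. A match is only a match of letters.

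The last 30 bases of the transcript are shown because the cDNA was primed from the tail that follows them. For 5 members a GRCm39 transcript within 5% of the listed length was found, and for Atp5d and Atp5o none was. Lines for 4 of them, with Atp5a1 not shown, run 5′ to 3′ within the last exon, in the 3′ UTR, and capitals mark the poly(A) signal.
Atp5e (chr2:174302868-174302897, minus strand): tatgccAATAAAttaacatggttcactttc
Atpif1 (chr4:132257868-132257897, minus strand): taacagatAATAAAcgatcaccaggaaact
Atp5c1 (chr2:10060844-10060873, minus strand): ttatcttacAATAAAcaacttacaatgaga
Atp5b (chr10:127926231-127926260, plus strand): attATTAAAaagatcaatttattaatgaga

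Atp5e, Atpif1 and Atp5c1 carry AATAAA and Atp5b and Atp5a1 carry ATTAAA, and 73.3% of the 7998 matched coding genes had either in their last 40 bases. None of the 5 matched members had TTTTAT or TTTTAAT, forms of the element that directs cytoplasmic polyadenylation in oocytes, in the last 100 bases, and 19.2% of the matched genes did. Matching covered 7998 of 10343 tested coding genes (77.3%) but only 5 members, without Atp5d and Atp5o, so no comparison of sets was made.

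The members that fell are short. The listed lengths are 421 bases for Atp5e, 539 for Atpif1, 838 for Atp5o, 931 for Atp5d, 1166 for Atp5c1, 1916 for Atp5b and 2471 for Atp5a1. Among tested Ensembl entries under 600 bases the median log2FC was -0.47 and 21.8% were DEGs lower in IVO, and from 600 to 1000 bases they were -0.36 and 22.8%. From 1000 to 2000 bases they were -0.18 and 14.6%, and from 2000 bases on they were -0.13 and 12.0%. Atp5e, Atp5o and, narrowly, Atpif1 were below the middle 50% of entries of their length. With the length trend removed Atp5e and Atp5o stayed DEGs, at -1.80 and -1.87 on the log2 scale, and Atpif1 did not. The part of length in the result was otherwise not tested.

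**Figure D3:**
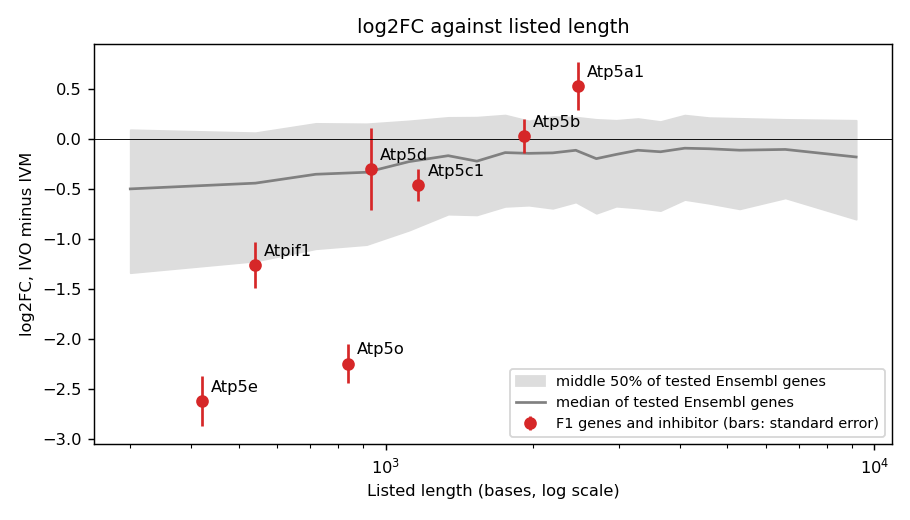
Log2FC (IVO minus IVM) against listed gene length on a log axis. Red points are the 7 genes with bars of 1 standard error, and grey shows the median and middle 50% of tested Ensembl entries in 20 bins of length. Atp5e and Atp5o lie well below the grey band and Atpif1 lies at its lower edge.

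The rest of the enzyme was also divided between genes that fell and genes that did not. Of 14 tested genes of the membrane part and stalks, 6 fell in IVO as DEGs and 2 rose, against 17.9% and 0.606% of all tested entries. All 6 that fell are nuclear genes for small subunits, as are Atp5g2, Atp5g3 and Atp5j2 of the same list, which were not DEGs. Atp5md and Atp5mpl, which sit in the membrane, were at -3.01 and -2.64 (limma adjusted p = 0.00272 and 0.00106), and Atp5j, of the peripheral stalk, was at -2.36 (limma adjusted p = 0.00965). Atp5l was at -1.77, Atp5g1, a gene for the rotor ring subunit, at -1.27 and Atp5k at -1.09 (limma adjusted p = 0.00215, 0.00527 and 0.00927). Atp5g2 and Atp5g3, which also encode the ring subunit, were not DEGs, at -1.07 and 0.08 (limma adjusted p = 0.0625 and 0.781). The median over the 12 nuclear genes was -1.08. The 2 that rose, mt-Atp6 at 1.17 and mt-Atp8 at 1.21 (limma adjusted p = 0.00599 and 0.00908), are the subunits encoded in mitochondrial DNA. All 8 DEGs of the reported fit kept their direction in every fit that tested them, which was 21 fits, or 20 for Atp5md, Atp5k and mt-Atp8. The last-named genes are under 400 bases and were left out of the fit with a common fragment length. Atp5mpl and Atp5j were DEGs in all 21, Atp5g1 in 17 and Atp5k in 12 of 20, and with median-ratio scaling the 4 lower DEGs were Atp5md, Atp5mpl, Atp5j and Atp5l. The lowest count was 3 (Atp5md, Atp5mpl and Atp5j), with a replicate block and the length trend removed.

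Set against the mean of the 12 nuclear membrane and stalk subunits within each library, Atpif1 differed by 0.07 on the log2 scale (IVO minus IVM), and the groups overlapped (exact permutation p = 0.9). The same difference was -1.30 for Atp5e and -1.09 for Atp5o, and it was 1.40 for Atp5b and 1.94 for Atp5a1. For each of these 4 genes the groups did not overlap (exact permutation p = 0.1, the smallest possible, and 0.14 by the Benjamini-Hochberg method over 7 ratios). The reference itself fell, as its 12 genes had a median log2FC of -1.08, so the 1.40 for Atp5b stands beside its own log2FC of 0.03.

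Of the 5 assembly factors, Atpaf1, the chaperone that binds beta during F1 assembly, fell with a log2FC of -1.83 and Tmem242 with -1.09 (limma adjusted p = 0.0258 and 0.0366), and none was a DEG higher in IVO. Over all tested entries, 17.9% were DEGs with lower and 0.606% DEGs with higher levels in IVO. Atpaf1 was a DEG in 10 of the 21 fits and Tmem242 in 8, and with median-ratio scaling neither was. In the 3 fits with the length trend removed no assembly factor was a DEG lower in IVO, and Fmc1 was a DEG higher, at 1.07 to 1.13. Of 7 tested genes that move ATP, ADP or phosphate, the phosphate carrier Slc25a3 rose with a log2FC of 1.57 (limma adjusted p = 0.00796), and Vdac2, a channel of the outer membrane, had -0.73 (limma adjusted p = 0.0327) without reaching the fold threshold. Gapdh, the reference gene of the study, was at -0.13 (limma adjusted p = 0.727).

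**Figure D4:**
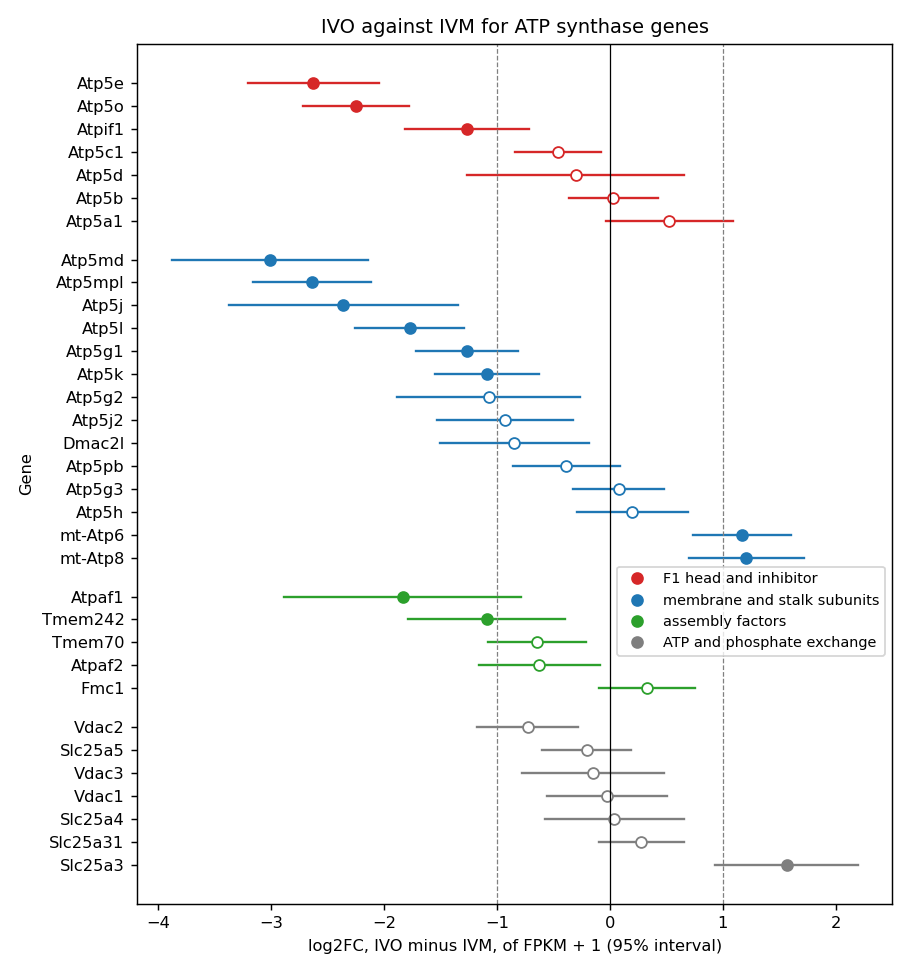
Log2FC of FPKM + 1, IVO minus IVM, with 95% intervals from limma for the F1 genes and inhibitor, membrane and stalk subunits, assembly factors and exchange genes. Filled points are DEGs and dashed lines mark the fold threshold of 1. Of the 7 F1 and inhibitor genes, 3 are filled on the left and none on the right.

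By pattern over the 6 samples, measured as the root-mean-square (RMS) difference of centred log2(FPKM + 1), the genes nearest to Atp5e were Nfkbil1 (0.132), Fam229b (0.173) and 1700116B05Rik (0.191). Nearest to Atp5o were the pseudogene Ldhb-ps (0.0530), Tmem108 (0.0963) and Snapc5 (0.104). Nearest to Atpif1 were Gm48534 (0.0822), the prefoldin subunit gene Pfdn5 (0.0894) and Tusc2 (0.106). These distances describe 6 points each. For Atp5a1 the nearest were Dazap2 (0.0538), Serpine2 (0.0610) and Ppargc1b (0.0661). Smco4, Srsf6 and Tmem30b were nearest to Atp5b, Hscb, Brk1 and Setd4 to Atp5c1, and Gm48877, Tsr3 and Eefsec to Atp5d.

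Pseudogenes and overlapping genes could share reads with a member. Of 16 other entries that carry a member's KEGG ortholog, 13 were at 0 in all samples. Donson, whose annotation shares the ortholog of Atp5o, had a log2FC of 0.38 (limma adjusted p = 0.279). The pseudogene Atp5c1-ps was at 0.45, 0.09 and 1.98 FPKM in IVM and 0.67, 0.11 and 0.55 in IVO, small beside Atp5c1. The entry at 0 named Atp5o overlaps the one tested, and how fragments were divided between them is not given in the sources used here.

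The plot of log2FC by processing setting shows how far each gene moved. Atp5e ranged from -2.97 to -1.75 and Atp5o from -2.43 to -1.77, and both were DEGs in all 21 fits. Atpif1 ranged from -1.48 to -0.55 and was a DEG in 14 of 21. Leaving out any 1 sample kept all 3 calls.

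**Figure D5:**
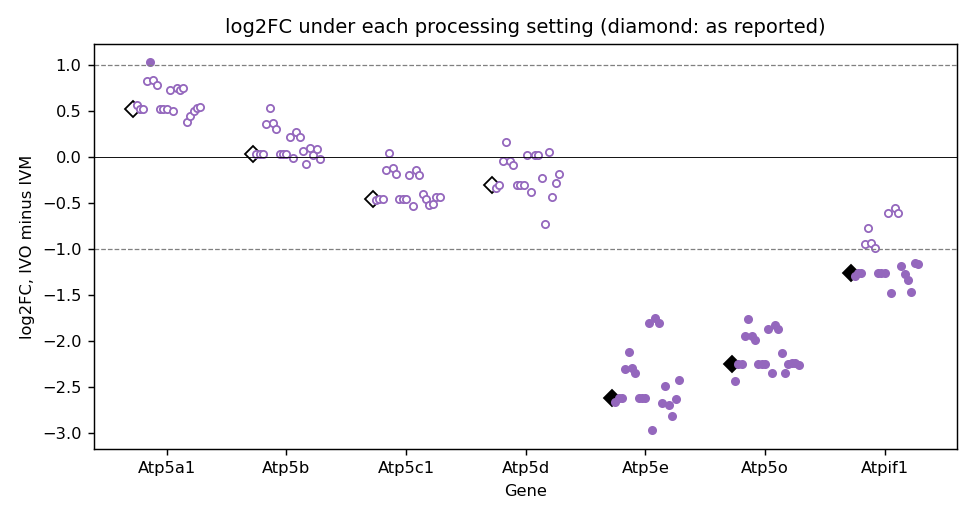
Log2FC of each gene (IVO minus IVM) under each processing setting, with diamonds for the reported fit and filled points for DEGs. Atp5e and Atp5o stay below -1 throughout, Atpif1 crosses it, and Atp5b, Atp5c1 and Atp5d take either sign.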

How the data were processed

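RNA-seq of 3 IVM and 3 IVO pools of oocytes was made with full-length SMART-Seq v4 cDNA and paired reads of 150 bases. Per the submitters' processing notes and methods, the authors used SeqPrep and Sickle for read filtering, HISAT2 2.1.0 for alignment to GRCm39 and RSEM 1.3.3 for quantification, and tested counts with DESeq2 1.24.0. The authors deposited FPKM per gene and sample with a gene length, and no counts, so no count model was run. Depth and fragment length were inferred from steps between low FPKM values of genes of 500 to 4000 bases, and 71.7% to 75.6% of such values, per library, were whole within 0.15 of a fragment. Fragment numbers are approximate and cover counting error only. Groups and replicate numbers came from the sample titles. Log2(FPKM + 1) was fitted in R 4.3.3 with limma 3.58.1 (eBayes with trend) on the 18818 entries with mean FPKM of at least 1, with Benjamini-Hochberg adjustment over all of them. A pseudocount of 1 understates changes of low genes. Pools come from separate mice as far as the study's methods state biological replicates. On simulated data for IVO against IVM with 18818 genes, 152 of 200 genes changed by 2 on the log2 scale were called (76%), with 8 false calls. The changed genes were drawn from those with mean log2(FPKM + 1) above 3. The simulated noise was independent between genes and held no scaling difference or length trend, so these rates need not hold for the real data. The members and gene lists were chosen with earlier results of these data known. Named genes outside the members were the DEGs of each list, at most 6 by size, those passing the test with the other sign, tested entries sharing an ortholog, and the 3 nearest patterns per member. Other genes of the lists are named where they limit a statement. Alternatives were scaling, filter, pseudocount, gene set, length trend, trend setting, replicate block and leaving out samples.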

Additional observations from a re-analysis of the deposited data

How the results depend on the processing

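Calls of Atp5e and Atp5o held under all 20 alternatives. Atpif1 lost its call under 7, with log2FC and limma adjusted p of -0.78 (0.0443) with quantile normalization, -0.95 (0.0301) with median-ratio scaling, -0.93 (0.0368) with the same summed FPKM, -0.99 (0.0299) with the same nuclear sum, -0.61 (0.0967) with the length trend removed, -0.55 (0.117) with both and -0.61 (0.133) with block and length trend. The 2 combined settings and the common fragment length were chosen after seeing the data. With quantile normalization, as with median-ratio scaling, 1 gene (Atp5a1) passed the test as higher in IVO, and under quantile normalization it was 1 DEG higher in IVO. The median of the members (-0.46) was -0.86 with a mean FPKM of at least 5, which removed Atp5d, 0.048 with quantile normalization, -0.13 with median-ratio scaling, -0.12 with the same sum, -0.18 with the nuclear sum, -0.20 with the length trend removed, -0.14 with both, -0.20 with block and length trend, and -0.73 to -0.40 when leaving out 1 sample, the lowest without IVM replicate 2. Signs also turned for Atp5c1 (0.048) and Atp5d (0.16) with quantile normalization, Atp5d with the length trend removed (0.028, also with the block, and 0.027 with median-ratio scaling) and without IVM replicate 3 (-0.73 to 0.056 over left-out samples), and Atp5b with a common fragment length (-0.0095), without IVM replicate 2 and without IVO replicate 3 (-0.073 to 0.099 over left-out samples). Relative to the nuclear stalk mean in place of Atp5b, Atp5c1 was at 0.91, Atp5d at 1.03 and Atpif1 at 0.069. The causes were not tested. Over all tested entries, DEGs lower in IVO numbered 3366 and higher 114, against 1620 and 1044 with quantile normalization, 2102 and 388 with median-ratio scaling, 2131 and 397 with the same sum, 1511 and 557 with the length trend removed, 1516 and 585 with both, and 741 and 188 with block and length trend, 1972 lower with Ensembl entries alone and 315 higher with the nuclear sum. Same-numbered samples did not deviate together (correlations -0.06, -0.02 and -0.11), which cannot show whether they were collected or processed together. With a replicate block there were 2899 lower and 92 higher, with Atp5e, Atp5o and Atpif1 still DEGs (limma adjusted p = 0.0095, 0.010 and 0.023). Depth limits Atp5d most, at 27 to 107 fragments per sample.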
